A study of Mus musculus with 6 samples.

Results

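Of the 55681 non-control probes on the array, 15604 carried the name of an autosomal genomic interval and a strand letter, F or R, in place of a transcript accession. These are the probes for long non-coding regions. They were chosen by that name alone, and 577 further probes for regions on chromosome X were left out. The 15604 probes tiled 3387 intervals of the mouse assembly mm9, the build named by the array grid, as 4429 combinations of interval and strand. Of these probes 7890 carried the letter F and 7714 the letter R. Whether the letter names the transcribed strand or the strand of the probe is not given in the sources used here, so F and R are used below as names only.

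Long non-coding RNAs are transcripts that do not encode a protein. Many are transcribed from intervals between protein-coding genes, and chromatin marks of active transcription were one way in which such intervals were first recognised. Some act on chromatin or on splicing, and a few bind microRNAs during muscle differentiation, but for most intervals no function is known. They are generally less abundant and more restricted to single tissues than messenger RNAs.

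RNA came from the gastrocnemius, a calf muscle rich in fast fibres, of male mice aged 13 weeks (young) or 25 months (old), with 3 samples per age. No strain, genetic change or treatment is given for either age. Cy3-labelled RNA of each sample was run on its own single-colour Agilent array, and all 6 arrays lay on 1 slide. No label states that the samples of an age came from separate animals, so the p-values speak only of the spread between these arrays, and that spread may be technical.

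The skeletal muscle fibre markers (9 of 9, such as Ckm and Acta1) were detected on every array where their spot was used, the spot of Tnni2 on old replicate 3 being left out as an outlier. Old replicate 1 stood apart. Its negative controls averaged 61.3, where the other 5 arrays had 51.9 to 55.1, and its spike-in slope was 0.840, where the others had 0.925 to 0.941. Slide rows were inferred from the position numbers in the scan names. By these, row 1 of the slide held the young arrays and old replicate 1, and row 2 held the rest. In bulk muscle, fewer cells of a type and less RNA per cell cannot be told apart.

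Region probes were detected less often than the rest of the array. A probe counts as detected on an array where the scanner software marked its spot as well above background. On the young arrays 33.0%, 31.2% and 30.8% of the region probes were detected, and on old replicates 1 to 3 37.3%, 30.1% and 31.5%. Among the 39500 probes without a region name the shares lay between 56.4% and 60.6%. Old replicate 1 was the highest of the 6 arrays in both sets, and the ages overlapped. The mean share of region probes was 31.7% ± 1.18 (SD, n = 3) in young and 32.9% ± 3.82 (SD, n = 3) in old muscle. An exact two-sided permutation test gave p = 0.80, where 3 against 3 arrays cannot give less than 0.1. Without old replicate 1 the old mean was 30.8%.

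Detection was mostly all or nothing. Of the region probes 8409 (53.9%) were detected on no array and 3748 (24.0%) on all 6. Another 1643 were detected on a single array, and old replicate 1 was that array for 897 of them (54.6%), against 98 to 191 for each other array. In all, 5005 region probes (32.1%) were detected on at least 3 arrays and entered the comparison of ages, as did 57.8% of the other probes. Probes for transcripts that RefSeq classes as long non-coding RNA passed this filter in a similar share (29.9% of 1346), and probes for protein-coding transcripts in 65.9% of 26696. The region probes that passed were also dimmer, with 47.2% of them in the lowest quartile of brightness of all probes tested, against 19.9% of the other probes.

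Probes for the same interval and strand often disagreed on detection. Of 3769 interval strands with at least 2 probes, 519 (13.8%) had every probe detected on at least 3 arrays, 1690 (44.8%) had some and 1560 (41.4%) had none. The share of single probes detected moved little with the number of probes per strand (from 29.8% to 34.6%). The share of interval strands with any detected probe rose with that number, from 33.6% with 1 probe to 81.2% with 6 or more. Intervals with more probes thus had more chances to count as detected. The intervals also share sequence, as 2015 of 3387 (59.5%) overlapped another interval on the array.

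Strand could be compared in 1042 intervals that held probes for both letters. Of these, 427 (41.0%) were detected on 1 strand only, 422 (40.5%) on both and 193 (18.5%) on neither, where a strand counts as detected if any of its probes was detected on at least 3 arrays. The R strand alone was detected in 237 intervals (22.7%) and the F strand alone in 190 (18.2%). In the 584 intervals with equal numbers of probes on both strands these shares were 24.1% and 17.6%. Per probe, R was detected more often than F in these intervals, at 34.9% of 4668 against 28.6% of 4763. Where an interval had probes for 1 letter only the shares were closer, at 33.1% for F and 32.1% for R. Over all region probes R exceeded F on each of the 6 arrays. No test was made of this difference, as probes of overlapping intervals are not independent.

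The detected strand was largely the same in both ages. When each strand was classed by detection on all 3 arrays of an age, 917 of the 1042 intervals (88.0%) had the same class in young and old muscle, 303 of them detected on both strands, 209 on R only, 174 on F only and 231 on neither. Of the other 125, a change from F only to R only was seen once and the opposite change once.

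Intervals ranged from 62 to 7128487 bp, with a median of 7451 bp. Detection was lowest in the shortest quartile of intervals (62 to 794 bp), at 25.6% of 2140 probes, and highest in the second (795 to 7451 bp), at 37.0% of 3140 probes. The third quartile (7476 to 21813 bp) had 32.8% of 4911 probes and the longest (21823 bp and more) 31.1% of 5413. The difference between the shortest and the second quartile was seen on every array. It ran from 24.0% to 31.1% in the shortest and from 34.8% to 41.7% in the second, with old replicate 1 highest in both. Among interval strands with exactly 3 probes the shares were 25.5%, 38.0%, 31.1% and 39.2% from the shortest to the longest quartile. Beyond the shortest intervals there was thus no steady order by length. With fixed classes the shares were 31.2% below 5 kb, 33.3% from 5 to 20 kb, 31.7% from 20 to 100 kb and 28.6% at 100 kb and more, so the longest class was then below the shortest. None of the intervals of the shortest quartile had probes on both strands. In the other 3 quartiles the share detected on 1 strand only lay between 40.4% and 43.2%.

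Old muscle, which the series title calls atrophied, was then compared with young muscle. Levels are given as the signal in percent of the array's 75th percentile over non-control probes, and differences as log2 of old minus young. Over the 5005 region probes tested the median difference was -0.12 (interquartile range -0.36 to 0.18), and over the 22846 other probes tested it was -0.06 (-0.29 to 0.20). Region probes with a lower mean in old muscle made up 61.4%, against 57.5% of all probes tested. The median of the region probes lay below that of the other probes in each quartile of brightness, by -0.07 against -0.02 in the dimmest and by -0.28 against -0.10 in the brightest. Centred on each probe's mean, the median on single arrays ran from 0.0043 to 0.15 in young and from -0.11 to -0.0009 in old muscle. The ages did not overlap, but the closest pair of arrays differed by less than the SD within an age, which was 0.067. Centring each array on its median moved the median of all probes from -0.07 to -0.20 and that of the region probes to -0.25. Without a filter on dim probes the region median turned positive, at 0.07.

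Singly, 14 region probes changed with age, 9 higher and 5 lower in old muscle, in limma at an adjusted p under 0.05 (Benjamini-Hochberg, over all 28010 probes tested). That is 0.28% of the region probes tested, where 0.264% of all probes tested were called. For the increases the shares were 0.18% against 0.196%, and for the decreases 0.0999% against 0.0678%. At an unadjusted p under 0.05 there were 716 region probes (14.3%, against 14.1% of all probes tested). Old and young values did not overlap in 1003 region probes, or 20% of those tested, where 21.7% of all probes were separated in this way. The region probes were thus called about as often as the rest of the array. The number depended on single arrays. It was 1 when any single young array was left out, 2 without old replicate 2 and 1 without old replicate 3. Without old replicate 1 it was 40 of 4755 tested (10 higher and 30 lower), beside 225 of 27314 over all probes. Of the 40, 9 were among the 14, and the rest of the 14 were not tested then. The split of higher and lower was 4 and 4 with median centring, 7 and 6 with quantile normalization and 5 and 4 with normexp background correction.

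The 14 probes lay in 11 intervals, which merged where they overlapped into 9 loci on 8 chromosomes. Those given below with a fold bound were detected on all arrays of 1 age and on none of the other. They entered the test only through the age where they were high, and their p-values rest in part on background values. Of the 14, 9 carried R and 5 carried F, where 2609 R and 2396 F region probes were tested. Of the 9, 4 lay at 1 locus on chromosome 17 and 2 at 1 locus on chromosome 18. All 5 decreases were on chromosome 17, 4 of them in overlapping intervals.

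The largest increases came from 1 interval on chromosome 14 (chr14:21029450-21049451, 20002 bp, mm9), on its F strand. Probe A_30_P01021285 had levels of 2.29, 1.28 and 1.32 on the young arrays and of 329, 110 and 98.8 on old replicates 1 to 3. No young array was well above background, and the levels of the ages did not overlap. Against the detection limit of the young arrays it was at least 28.6-fold higher in old muscle (limma adjusted p = 0.00921). Probe A_30_P01028586 of the same strand had young levels of 1.44, 5.53 and 1.37 and old levels of 214, 73.1 and 71.0, at least 19.4-fold higher (adjusted p = 0.0363). Here too old replicate 1 was the highest array and the young arrays were not well above background.

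The other 3 F probes of this interval also had higher old than young values on every array, but none passed the test. A_30_P01021478 had young levels of 4.57, 2.19 and 4.15 and old levels of 24.9, 17.3 and 13.0 (adjusted p = 0.0702). A_30_P01022115 had 67.2, 62.5 and 71.1 in young and 523, 210 and 178 in old muscle, a difference of 2.01 ± 0.40 (SE, here and below, 3 arrays per age). A_30_P01019645, detected on every array, differed by only 0.51 ± 0.21. Of the 5 R probes of the interval 2 were tested, with differences of -0.23 and -0.26. The difference thus lay on 1 strand. It varied between the probes of that strand, from 0.51 on the log2 scale to at least 28.6-fold. In 8 intervals within 1000000 bp on either side, 17 probes were tested, with a median of -0.27 and none past the threshold. With the mean of a strand's tested probes as 1 unit, a choice made after seeing the data, the F strand was higher in old muscle (limma adjusted p = 0.0233). That mean uses the same probes as above and adds no separate evidence. Since 3 of its 5 probes were detected on no young array, they entered only through their old values. No size is given for that mean.

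A short interval on chromosome 1 (chr1:85304494-85305390, 897 bp, R) held the next increase. A_30_P01022910 had young levels of 1.21, 1.45 and 1.52 and old levels of 24.1, 12.3 and 25.8, at least 3.68-fold higher (adjusted p = 0.0126). A_30_P01030738 on the same strand, also detected on no young array, had 5.32, 5.91 and 6.55 in young and 25.3, 10.2 and 26.0 in old muscle without passing (adjusted p = 0.165), and the third probe, A_30_P01024650, was detected on 2 old arrays and was not tested. The longer interval around it (chr1:85300475-85331475) had R probes that differed by -0.02 and 0.44. Both tested probes of the shorter interval thus had higher old than young values, and those of the longer one did not separate the ages.

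In 3 other intervals a single probe rose and no other probe of its strand passed. A_30_P01023643 (chr16:9158862-9162427, F) had young levels of 0.907, 2.0 and 1.16 and old levels of 6.05, 8.83 and 8.74, at least 1.45-fold higher (adjusted p = 0.0431), and its other 2 probes were detected on no array. Its call was lost with median centring, quantile normalization, trend and robust eBayes and normexp, and it passed in 3 of the 14 alternatives that tested it. A_30_P01033559 (chr9:68349343-68411643, 62301 bp, R) had young levels of 1.63, 1.24 and 1.61 and old levels of 7.61, 6.45 and 13.3, at least 1.62-fold higher (adjusted p = 0.0351). This call was lost under the same 4 settings and with the deposited value table, and it passed in 2 of 14 alternatives. The other 7 R probes of that interval were detected on no array, and the 3 tested F probes had differences from -0.39 to 0.40. A_30_P01021423 (chr2:181650800-181669350, R) was measured on every array, with levels of 25.8, 30.7 and 22.8 in young and 91.6, 103 and 122 in old muscle, a difference of 1.99 ± 0.20 (adjusted p = 0.0255). The other R probe there, A_30_P01025538, had 0.51, and the F probes of the same interval had 0.12 to 1.26.

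In 2 intervals the probes of a strand moved closely together. At chr3:85783094-85783408 (315 bp, F), A_30_P01028904 had levels of 14.0, 17.2 and 17.5 in young and 60.5, 41.0 and 53.5 in old muscle, a difference of 1.66 ± 0.21 (adjusted p = 0.0431). The other 2 probes, A_30_P01030141 and A_30_P01030436, differed by 1.58 ± 0.25 and 1.48 ± 0.23 with adjusted p of 0.0750 and 0.0700. All 3 were detected on every array, and old and young values overlapped in none.

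At chr18:3003075-3016150 (13076 bp) both strands were higher. The R probe A_30_P01022919 had levels of 13.8, 18.4 and 19.2 in young and 60.6, 76.5 and 62.9 in old muscle (1.96 ± 0.20, adjusted p = 0.0260). The R probe A_30_P01023020 had 35.9, 57.0 and 56.4 against 157, 179 and 185 (1.83 ± 0.23, adjusted p = 0.0431). The remaining tested R probe, A_30_P01029618, was detected on no young array and all 3 old arrays, with old levels of 14.6, 12.4 and 18.2. Neither of the 2 tested F probes passed. A_30_P01020808 differed by 1.32, and A_30_P01019700 was detected on no young array and all old arrays. In none of these 5 probes did the ages overlap. This was the only locus among the 9 where tested probes of both strands were all separated by age in the same direction.

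The largest decreases came from R probes of overlapping intervals on chromosome 17 (chr17:22332475-22472588 after merging, 140114 bp). A_30_P01029664 (chr17:22420025-22457650) had levels of 30.5, 26.1 and 40.1 in young and 1.21, 1.24 and 1.11 in old muscle. It was well above background on every young array and on no old array, at least 5.62-fold lower in old muscle (adjusted p = 0.00144). A_30_P01031943 of the same interval had 36.5, 26.7 and 43.3 against 3.83, 2.37 and 3.65, at least 6.17-fold lower (adjusted p = 0.0121). A_30_P01030657 (chr17:22335458-22466521) had 69.5, 61.1 and 96.5 against 4.49, 3.02 and 3.44, at least 13.2-fold lower (adjusted p = 0.00498). The old levels of these 3 probes lay at or under the signal that counts as well above background, so the folds are lower bounds. Their p-values rest in part on the spread of those background values.

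The rest of that strand was lower too, with 1 exception. A_30_P01033171 (chr17:22422837-22451777), measured on all arrays, had levels of 26.0, 29.3 and 35.7 in young and 8.43, 7.61 and 7.50 in old muscle, a difference of -1.94 ± 0.18 (adjusted p = 0.0215). Of the 12 R probes of the locus 10 were tested, 9 of them with a negative difference and no overlap between the ages. A_30_P01020914, A_30_P01027624 and A_30_P01017976 had -1.78, -1.62 and -1.16 with adjusted p of 0.0594, 0.109 and 0.109. The exception, A_30_P01030119, lies in the same interval as A_30_P01029664 and had 0.58 ± 0.28, with young levels of 39.3, 30.6 and 55.3 and old levels of 46.8, 74.6 and 63.2. The 2 tested F probes had -0.26 and -0.23. The 13 tested probes of other intervals within 1000000 bp had a median of -0.12, and none passed. With interval strands as units, the R strands of chr17:22335458-22466521 and chr17:22420025-22457650 were lower in old muscle (adjusted p = 0.0153 for both), and their means include probes that were not well above background there. This unit was chosen after seeing the data, uses the same probes and adds no separate evidence. These intervals overlap, so their probes may report on the same transcript and do not count as separate findings.

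The remaining decrease on chromosome 17 lay elsewhere. A_30_P01021704 (chr17:17342991-17343357, 367 bp, F) had levels of 275, 275 and 355 in young and 75.1, 88.9 and 108 in old muscle, a difference of -1.74 ± 0.21 (adjusted p = 0.0363). The other probe of this strand, A_30_P01031699, differed by -0.44.

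With the slide row as a block the comparison rests on old replicate 1 alone against the young arrays, since row 2 held old arrays only, and that single array is assumed to vary like the others. A_30_P01021285, A_30_P01029664 and A_30_P01030657 then still passed, and the 11 others kept their sign. With normexp, 4 of the 5 increases with a bound lost their call, A_30_P01028586, A_30_P01022910, A_30_P01023643 and A_30_P01033559, with adjusted p from 0.0611 to 0.359. The 3 decreases with a bound kept theirs. A_30_P01028904 and A_30_P01033171, both detected on every array, lost theirs. The 5 increases with a bound were detected on too few arrays to be tested without 1 of the old arrays. The same held for the 3 decreases with a bound without 1 of the young arrays. The low counts with a young array left out therefore come in part from probes that were not tested. Of 18 alternatives, A_30_P01028904 passed in 7, A_30_P01022919 in 9, and A_30_P01021423, A_30_P01023020, A_30_P01033171 and A_30_P01021704 in 8 each. Of 14 alternatives that tested them, A_30_P01021285 passed in 12, A_30_P01028586 and A_30_P01022910 in 7 each, A_30_P01029664 in 14, A_30_P01030657 in 13 and A_30_P01031943 in 10.

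Markers of other cell types differed between the ages alongside these probes. The summed level of the neutrophil markers on the array (6 of 7 listed) was 75.2 to 123 in young and 1392 to 2091 in old muscle, carried by S100a8 and S100a9, subunits of calprotectin, which passed the test, and by Retnlg (adjusted p = 0.0613), while Camp had -0.42. The neutrophil genes Mpo and Ngp were not well above background on any array. The macrophage markers summed to 1984 to 2197 in young and 2330 to 2825 in old muscle, with 6 of 7 tested members higher and none past the threshold. The erythroid markers Hba-a1, Hbb-b1 and Alas2 summed to 12597 to 19300 against 4447 to 9427, and the Schwann cell markers to 804 to 908 against 620 to 703, with Prx lower past the threshold and Mbp at 1.31 without passing. The endothelial sum was 1124 to 1345 against 805 to 981, with Cdh5 and Kdr at -0.81 and -0.37 but Pecam1 and Tek at 0.51 and 0.44, none past the threshold. The muscle fibre markers summed to 540638 to 653851 in young and 397041 to 527358 in old muscle, the latter without Tnni2 on old replicate 3, and 8 of 9 had negative differences (median -0.20) with none past the threshold. The adipocyte and lymphocyte sums overlapped between the ages. The part of these cells, muscle fibres included, in the region probes' differences was not tested.

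Some region probes crossed the detection limit between the ages. On all 3 old arrays and no young array 42 region probes (0.269%) were detected, and on all 3 young and no old array 47 (0.301%). Among the other probes the shares were 0.253% and 0.187%. These shares are of all probes, detected or not. Of probes detected on at least 3 arrays, the counts were 42 and 47 of 5005 region probes, and 100 and 74 of 22846 others. On that base the share was larger among region probes in both directions. The region probes that passed the filter were also dimmer, and the part of brightness in this was not tested. Region probes detected in 1 age only had to differ in order to be listed, so their values are a description. At higher old levels A_30_P01030914 (chr19:46413742-46418617, F) had 1.69, 3.14 and 1.30 in young and 8.68, 12.2 and 35.1 in old muscle. A_30_P01018573 (chr3:127170996-127201096, R) had 1.61, 2.71 and 5.76 against 13.9, 12.3 and 23.7. At lower old levels A_30_P01025875 (chr17:41231055-41249764, R) had 17.3, 15.6 and 61.2 against 4.40, 1.64 and 5.84, and A_30_P01033460 (chr1:6199946-6200603, R) had 10.3, 17.8 and 12.4 against 6.07, 1.92 and 1.75. In the last of these old replicate 1 was the closest of the old arrays to the young ones. The others fixed by the naming rule were A_30_P01031877, A_30_P01025161 and A_30_P01032468, with bounds of at least 1.74-fold to 2.87-fold higher. A_30_P01027208, A_30_P01029969, A_30_P01024751, A_30_P01029108 and A_30_P01024320 had bounds of at least 1.50-fold to 2.27-fold lower. Old replicate 1 was also the old array closest to the young ones in A_30_P01027208, A_30_P01029969, A_30_P01024751 and A_30_P01029108. It was not in A_30_P01024320 or A_30_P01025875. None of the probes named in this paragraph passed the test.

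A few further probes came close to the threshold. A_30_P01030095 (chr3:117935228-118089771, F), detected on 1 young array, had levels of 6.0, 4.48 and 5.49 in young and 12.1, 13.0 and 13.9 in old muscle (adjusted p = 0.0594). A_30_P01020964 (chr5:119945358-119962612, F), detected on 1 old array, had 23.8, 25.5 and 39.6 against 6.95, 5.32 and 9.48 (adjusted p = 0.0650). Both probes of chr16:77670599-77691642 on the F strand were lower, A_30_P01018977 by -1.08 ± 0.19 (adjusted p = 0.0996) and its neighbour by -0.95.

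The ratio of the strands within an interval could be tested in the 422 intervals with a tested probe on each. Where a probe was not well above background in an age, the ratio there holds only a background value and gives no size of change. At an adjusted p under 0.05 in limma's test 0 intervals passed, and 44 (10.4%) did at an unadjusted p under 0.05. Each strand entered by its brightest tested probe. For the F strand of chr14:21029450-21049451 that was A_30_P01019645 (0.51), not A_30_P01021285 or A_30_P01028586. For the R strand of chr17:22420025-22457650 it was A_30_P01030119 (0.58), not A_30_P01029664 or A_30_P01031943. The ratio test thus did not cover the called probes of these strands. The ratios of the ages did not overlap in 62 intervals (14.7%). The number past the adjusted threshold was 1 with array weights, 4 without old replicate 1 and 0 without each other array. The median change in the ratio was -0.05 (interquartile range -0.33 to 0.28), and in 33 intervals (7.82%) the fitted ratios differed by more than 1 on the log2 scale, intervals with undetected probes included. Across the 422 intervals the differences of the F and R probes had a Pearson correlation of 0.12, beside 0.53 for 1234 pairs of probes on the same strand and 0.59 for 3258 pairs of other probes that share an accession. These correlations are over probes that share arrays and are a description only.

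The intervals with the lowest p for the strand ratio were led by chr3:127170996-127201096. Its log2 ratio of F to R was 4.10, 3.50 and 2.66 on the young arrays and 0.23, 1.05 and -0.13 on the old arrays (adjusted p = 0.0982). Its R probe was detected on no young array, so the young ratios rest on background values and no size is given. Its F probe A_30_P01019635 had -0.59. At chr8:122920901-123008463 the ratio was 2.60, 2.54 and 2.73 in young and 4.19, 3.79 and 4.14 in old muscle, a change of 1.42 ± 0.23 (adjusted p = 0.0982), with 1.14 for the F and -0.28 for the R probe. At chr9:68349343-68411643 the ratio was also lower in old muscle (adjusted p = 0.119), with no size given because its R probe, described above, was detected on no young array. At chr14:55671783-55680316 it changed by -1.24 and at chr13:73472571-73483846 by 1.16, each with an adjusted p of 0.346. At chr15:102947390-102971082 the ratio was lower in old muscle, also with an adjusted p of 0.346. No size is given there, as its R probe was detected on 4 of 6 arrays. On young replicate 3 that probe had 2.10, under the lowest signal well above background (5.86). In all 6 the ratios of the ages were separate.

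The brightest region probes showed little difference with age. The 3 R probes of chr17:17481706-17482457, A_30_P01022075, A_30_P01025369 and A_30_P01018662, had differences of -0.11, -0.09 and -0.20, with overlapping ages. The first and second of these turned positive with quantile normalization, and the second also with normexp and without old replicate 1. A_30_P01031754 (chr19:5801802-5802597, R) had 0.32 ± 0.20, and the other 2 probes of that strand 0.33 and 0.43. A_30_P01031448 (chr14:78924115-78938125, F) had -0.17 ± 0.20. A_30_P01018056 (chr2:168804720-168854970, R) had levels of 43408, 56436 and 57630 in young and 41388, 39592 and 37473 in old muscle, separate between the ages but without passing (-0.40 ± 0.18, adjusted p = 0.378).

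Where an interval strand had at least 2 tested probes (1234 of them), the differences with age had the same sign in 752 (60.9%). The range between probes of a strand had a median of 0.35 on the log2 scale (interquartile range 0.17 to 0.65). Length made little difference to the median and to the share at an unadjusted p under 0.05. By calls, the shortest quartile had 1 higher and 1 lower probe, and the second 2 and 0. The third had 5 and 0, and the longest 1 and 4, where the 4 came from overlapping intervals on chromosome 17. The median difference with age was -0.14, -0.09, -0.11 and -0.14 from the shortest to the longest quartile, with 13.0%, 15.3%, 13.5% and 14.8% of tested probes at an unadjusted p under 0.05.

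For reference, the array also carries long non-coding RNA genes with a symbol. Of 51 listed, 28 matched a probe through RefSeq and 26 were tested. Each gene is given by a single probe, so its level and difference are those of that probe. Whether a region interval lies within any of these genes was not examined. None passed over all probes, 12 were higher and 14 lower, and the median was -0.07, beside -0.07 over all probes tested. Malat1, an abundant nuclear RNA of splicing speckles, had levels of 684, 409 and 675 in young and 1063, 1329 and 1711 in old muscle (1.23 ± 0.28, adjusted p = 0.165). Neat1, the scaffold of nuclear paraspeckles, had 12075, 8979 and 15925 against 24756, 17121 and 24374 (0.86 ± 0.27, adjusted p = 0.254). Meg3, a maternally expressed imprinted RNA, had 427, 374 and 708 against 178, 307 and 314 (-0.91 ± 0.33, adjusted p = 0.308), and Dubr, studied in myoblast differentiation, had 46.9, 42.0 and 52.1 against 27.6, 37.0 and 26.1 (-0.65 ± 0.20, adjusted p = 0.252). In each of the 4 the values of the ages did not overlap, and the same held for Tug1, Peg13 and Snhg7 of this list. Over all probes tested 21.7% were separated in this way.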

How the data were processed

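The intensity used is the processed signal of each spot, from which Feature Extraction had subtracted background, per the file headers, which give version 11.0.1.1 and protocol GE1_1100_Jul11. Version 9.5 is the one in the submitters' processing notes. The authors' deposited value table holds the same intensity divided by each array's 75th percentile, times 100 and rounded (62976 of 62976 values per array, within 0.51), and was used as an alternative (log2, pseudocount 1).

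Control spots were dropped, as were outlier spots (161 to 212 per array). The log2 processed signal, minus the array's 75th percentile over non-control probes, was averaged per probe, and no such spot was saturated. The 28010 probes that 3 or more arrays showed well above background were tested with limma 3.58.1 in R 4.3.3 (lmFit and eBayes, two-sided, Benjamini-Hochberg over all probes tested). Strand ratios used the brightest tested probe per strand. Python 3.11.15 made the tables. In simulated data 200 of 28010 probes were changed. Of those changed by 1, 2, 3 and 5 on the log2 scale, 10%, 88%, 96% and 100% were recovered, with 3 false calls. There were 0 calls without change. For strand ratios 200 of 422 were changed, and 56%, 100%, 100% and 100% were recovered, with 2 false calls. So large a changed share eases the adjusted threshold. The shares recovered thus do not show what the test of the real ratios could find.

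Fold bounds set the brighter age's mean against the lowest signal well above background on each dim array, or the probe's own where higher. Named probes were those past the threshold, the 10 lowest p per direction, the 6 brightest, up to 10 per direction detected in 1 age only and the 6 lowest p for the strand ratio. The regions, lists and rules were chosen with earlier results of these data known. Symbols came from RefSeq GRCm38.p6 by accession, with 28331 probes matched, and none of its coordinates were used. Neighbouring genes and probe sequences were not used here. The number of arrays limits the precision.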

Additional observations from a re-analysis of the deposited data

How the results depend on the processing

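The call of 14 region probes became 9 with normexp, 8 with median centring, 3 without a filter on dim probes, 6 with probes detected on all 6 arrays, 6 with probes detected on at least 1, 37 with array weights, 5 with a block for slide row, and 6 with the mean of each name's probes as the unit, an alternative chosen after seeing the data. It lay between 1 and 40 with single arrays left out. Over all probes 74 calls became 11 without a filter, 43 and 21 with the other filters, 236 with array weights and 35 with the slide row, and 2 to 225 with single arrays left out. The replicate numbers did not pair the samples, as same-numbered arrays correlated at -0.062, -0.28 and 0.018 in their deviations from the age means; with the replicate number as a block 4 region probes and 9 of all probes passed. Array weights gave 1 strand ratio, and leaving out single arrays 0 to 4. The median of the region probes, -0.12, was -0.25 with median centring, 0.068 without a filter, -0.045 with probes detected on at least 1 array, and -0.16 to -0.08 with single arrays left out. With the scanner's less strict flag for positive and significant signal 10489 region probes in place of 5005 were detected, and 114 intervals in place of 427 on 1 strand only, beside 269 with detection on any array. The detected share in the longest length class minus the shortest was 5.45 percentage points, 3.94 with that flag, 4.64 on all arrays, -2.66 with fixed classes and 4.91 to 5.42 with single arrays left out. Among named probes, A_30_P01031754 reversed with the slide row (-0.037), A_30_P01022075 with quantile normalization (0.055), and A_30_P01025369 with normexp (0.16), quantile normalization (0.076) and without old replicate 1 (0.0022, from a range of -0.17 to 0.0022 with single arrays left out). No test was run of the cause of any of these changes.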

Other observations

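Region probes on the autosomes were not detected evenly. The share detected on at least 3 arrays ran from 21.6% of 736 probes on chromosome 9 to 41.6% of 322 probes on chromosome 19. The median difference with age of tested region probes lay between -0.23 on chromosome 16 and -0.01 on chromosome 8.

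The 2 intervals whose detected strand differed between the ages were looked at after their values were seen. At chr1:33965074-34060850 the F probes A_30_P01028770 and A_30_P01031585 were well above background on 2 of 3 young and all old arrays, with differences of 0.91 ± 0.53 and 1.15 ± 0.57, and the R probe A_30_P01028962 on all young and 2 old arrays (-0.20 ± 0.36). At chr5:122982442-123000053 the F probe A_30_P01029424 had -0.49 ± 0.19 and the R probe A_30_P01029193 0.36 ± 0.31. None of these passed limma's adjusted threshold, with adjusted p from 0.325 to 0.820.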
